A study of Rattus norvegicus with 4 samples.

Results

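The genes of the proteasome were taken as the rows of the deposited count table whose symbol starts with Psma, Psmb, Psmc, Psmd, Psme, Psmf or Psmg followed by a digit. This rule found 48 of the 32545 listed genes. Of these, 47 code for proteasome subunits, activators, the inhibitor Psmf1 or assembly chaperones. The remaining match, Psmc3ip, is a meiotic recombination factor that shares only the letters of its name. Psme3, a nuclear activator, was not analysed here.

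Liver messenger RNA was sequenced from rats under chronic sleep restriction combined with forced activity (2 libraries) and from rats under forced activity alone (2 libraries), so that forced movement was common to both groups. The labels give no strain, age or sex and no length of treatment. They do not say whether each library is 1 animal, so p-values measure only the spread between these libraries. The question was how liver transcripts differ once sleep loss is added to forced movement.

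The proteasome degrades proteins tagged with ubiquitin. Its barrel-shaped core is built from rings of alpha subunits, which gate entry, around rings of beta subunits, some of which carry the proteolytic sites. A regulatory cap binds the tagged protein, removes the ubiquitin, unfolds the chain with a ring of ATPases and feeds it into the core. Interferon induces alternative catalytic beta subunits and the activator made of Psme1 and Psme2, which are called the immunoproteasome and favour the making of peptides for class I antigen presentation. In liver the proteasome clears damaged and short-lived regulatory proteins.

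The libraries held 515682.4 and 520275.6 counts for sleep restriction 1 and 2, and 508202.6 and 520204.5 counts for forced activity 1 and 2. The deposited values have the form of means over reads drawn down to a common depth. By an estimate from the low values, both replicate 1 libraries came from far deeper sequencing than the replicate 2 libraries. Differences within the replicate 1 libraries (deep pair) and within the replicate 2 libraries (shallow pair) are therefore given beside the pooled ones. Albumin, the main secreted protein of hepatocytes, had 66258.5 and 71015.6 counts under sleep restriction and 58800.5 and 70832.9 under forced activity, as the labelled tissue would have. Of the 6 hepatocyte markers listed, Apoa1 and Ttr were lower in both sleep restriction libraries, while albumin, Tf, Serpina1 and Fgb overlapped. Apoa1 had 744.1 and 597 counts under sleep restriction and 879.6 and 1114.2 under forced activity. Ttr had 4064.7 and 3566 counts under sleep restriction and 4774.9 and 4460.4 under forced activity. Levels are TMM-scaled counts per 1e6 counts of the tested genes (CPM). Log2 changes are sleep restriction over forced activity, with a standard error (SE) derived from the test statistic.

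Messenger RNA of the proteasome as a whole was at nearly the same level in both groups. The 48 rows together measured 3122 and 3516 CPM under sleep restriction and 3215 and 3437 CPM under forced activity. The sleep restriction values lay on either side of the forced activity values. The same rows made up 0.297% and 0.332% of all counts under sleep restriction, against 0.299% and 0.339% under forced activity. In bulk tissue, fewer cells of a type and less RNA per cell cannot be told apart.

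No proteasome gene passed the test. The filter on low counts kept 37 of the 48 rows. Of these, 0 had an adjusted p under 0.05 in edgeR's quasi-likelihood test with Benjamini-Hochberg adjustment over all 4986 genes tested, where 0.0201% of all genes passed. At an unadjusted p under 0.05 edgeR gave 1 member, the core subunit Psmb6, which is 2.7% of those tested against 4.21% of all genes. It was lower under sleep restriction, as were 1.36% of all genes at that level, and 0 members were higher, against 2.85% of all genes. DESeq2 gave 0 members at either level, and limma-voom gave 0 past the adjustment and 1 at an unadjusted p under 0.05.

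Log2 changes of the tested members ran from -0.55 to 0.37, with a median of -0.01, 17 positive and 20 negative. The split rests on single libraries, with 7 positive and 31 negative without sleep restriction 2, and 24 positive and 14 negative without sleep restriction 1. Each of these fits tested 38 members. Over all genes, 2881 of 5482 were negative without sleep restriction 2 and 2912 of 5607 without sleep restriction 1. With all libraries, the change was positive in both pairs in 9 of 37 tested members (24.3%), against 28.7% of all genes tested. Over all genes tested the median was 0.00, with 47.5% negative and 52.5% positive. The change exceeded 0.5 in either direction in 1 member (2.7%) and in 9.91% of all genes. Standard errors of the members lay between 0.21 and 0.28.

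**Figure D1:**
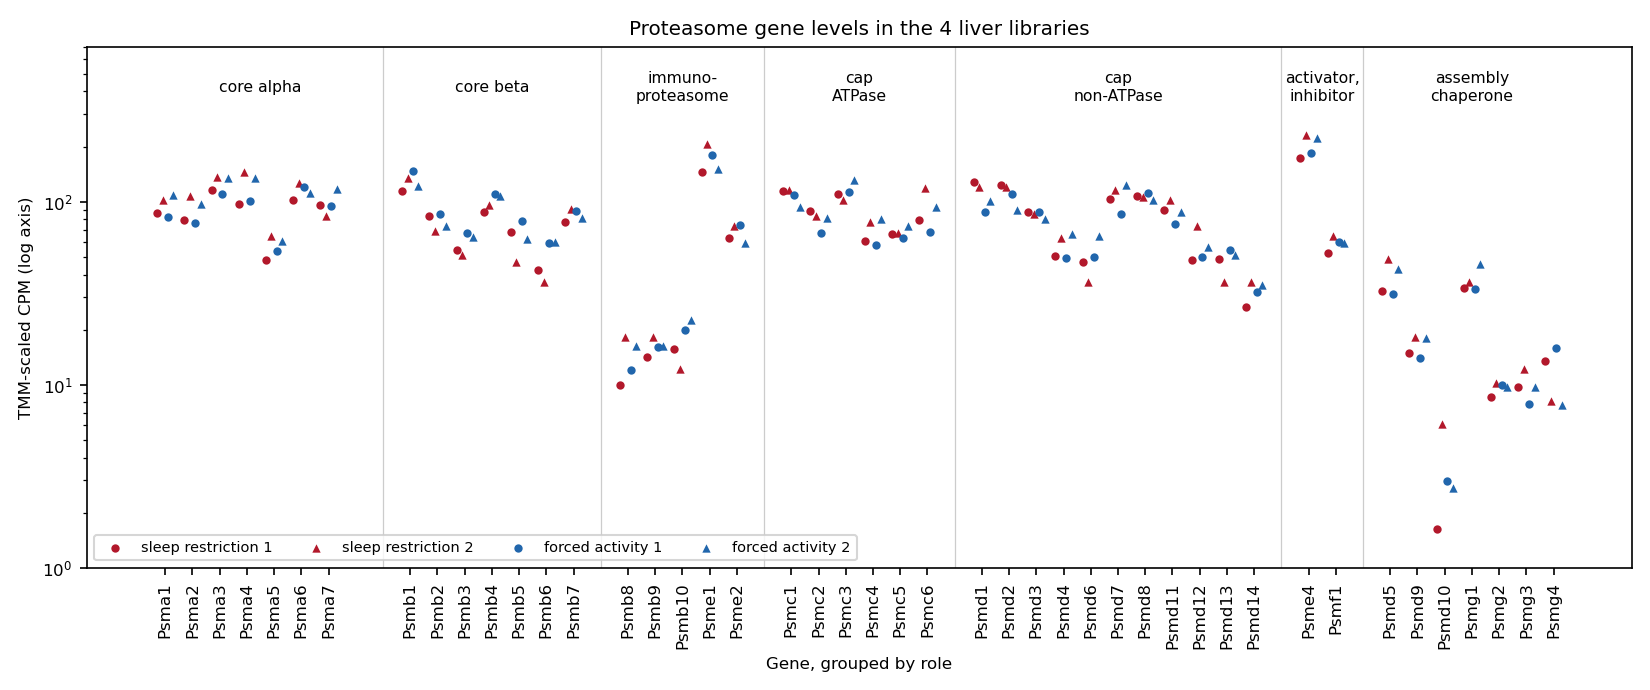
Level of the proteasome genes in each of the 4 libraries, in TMM-scaled CPM on a log axis, grouped by role. Red points are sleep restriction, blue points forced activity, circles replicate 1 and triangles replicate 2. For Psmb6 the red points, at 42.3 and 36.6 CPM, lie below the blue points, at 59.5 and 60.2 CPM.

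The constitutive beta subunits of the core were all on the negative side, 7 of 7, where 47.5% of all genes tested were negative. Their median log2 change was -0.24, and 5 of them were negative in both the deep and the shallow pair, against 27.4% of all genes tested. Summed, they measured 527 and 525 CPM under sleep restriction and 637 and 573 CPM under forced activity. Both sleep restriction libraries lay below both forced activity libraries. Without forced activity 1 the median was -0.12 and 4 of the 7 were negative. It was -0.19 without sleep restriction 1 and -0.24 without sleep restriction 2, each with 6 negative, and -0.26 without forced activity 2, with 7 negative. This group was singled out after its values were seen and has no test of its own.

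Psmb6, the constitutive subunit with caspase-like activity, had the most negative change. It measured 42.3 and 36.6 CPM under sleep restriction and 59.5 and 60.2 CPM under forced activity. The groups did not overlap, and these levels rest on 20.8 and 18 counts under sleep restriction and 28.1 and 30.9 under forced activity. The log2 change was -0.55 (SE 0.24), with -0.46 within the deep pair and -0.66 within the shallow pair, an unadjusted p of 0.0463 and an adjusted p of 0.999 in edgeR's quasi-likelihood test. With each library left out in turn the log2 change stayed between -0.66 and -0.46.

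The other catalytic subunits differed less. Psmb5, which carries the chymotrypsin-like site, measured 68.0 and 46.8 CPM under sleep restriction and 78.0 and 62.9 CPM under forced activity. Its log2 change was -0.28 (SE 0.26), and its groups overlapped because sleep restriction 1 lay above forced activity 2. Psmb7, with the trypsin-like site, measured 77.5 and 91.6 CPM under sleep restriction and 89.2 and 81.8 CPM under forced activity. Its log2 change was -0.01 (SE 0.22), with -0.19 within the deep pair and 0.16 within the shallow pair, so the pairs had opposite signs.

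Among the beta subunits without a catalytic site, Psmb3 measured 54.5 and 50.9 CPM under sleep restriction and 67.8 and 64.5 CPM under forced activity, a log2 change of -0.30 (SE 0.23). Psmb4 measured 87.9 and 95.6 CPM under sleep restriction and 110.2 and 108 CPM under forced activity, a log2 change of -0.24 (SE 0.21). In both genes each sleep restriction library lay below each forced activity library, and neither passed the test. Psmb1 measured 114 and 134 CPM under sleep restriction and 147 and 122 CPM under forced activity, with overlapping groups and a log2 change of -0.11 (SE 0.22). Psmb2 also overlapped, with a log2 change of -0.05 (SE 0.23).

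Log2 changes varied with gene length over all genes. Across all genes tested, sorted by genomic span into 10 equal bins, the bin of shortest spans had a median log2 change of -0.13 and the bin of longest spans had 0.13. Psmb4 and Psmb6 fall in the bin of shortest spans, at 2.69 and 2.25 kb. Psmb3 and Psmb5, at 7.10 and 4.62 kb, fall in the next bin, whose median was -0.10. Psmb7, at 81.0 kb, falls in a bin with a median of 0.09. Psmb1 and Psmb2, also with negative changes, span 19.1 and 32.3 kb, in bins with medians of 0.006 and 0.04. The part of span in the beta subunit values was not tested. RefSeq also names at least 1 pseudogene for 18 of the 48 members, among them 7 for Psmb3 and 2 for Psmb6. How reads shared with such copies were counted is uncertain.

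Alpha subunits were closer to equal between the groups. Of 7 tested, 3 lay above and 4 below 0 on the log2 scale, with a median of -0.02 and a range from -0.24 to 0.10. Their summed level was 625 and 765 CPM under sleep restriction and 638 and 764 CPM under forced activity, nearly the same between groups at each replicate number. Psma7 measured 95.7 and 83.4 CPM under sleep restriction and 94.5 and 117 CPM under forced activity, a log2 change of -0.24 (SE 0.22). Its difference lay in the shallow pair (-0.46) and not in the deep pair (0.02), and its groups overlapped.

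Psma2 measured 79.4 and 108 CPM under sleep restriction and 76.1 and 97.2 CPM under forced activity, a log2 change of 0.10 (SE 0.24). Psma3 measured 116 and 136 CPM under sleep restriction and 110.4 and 135 CPM under forced activity, a log2 change of 0.04 (SE 0.22). In both genes the replicate 2 library was the higher in each group. The remaining alpha subunits Psma1, Psma4, Psma5 and Psma6 had log2 changes from -0.02 to 0.04. Psma8, the alpha subunit known from testis, was at 0 in all 4 libraries.

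Alpha subunits also varied with replicate number. In 5 of 7 the replicate 2 library was above the replicate 1 library in both groups. Psma4, chosen after its values were seen, measured 96.9 and 144 CPM under sleep restriction and 100.2 and 135 CPM under forced activity. Across the 37 tested members, 16 (43.2%) were higher in replicate 2 in both groups, against 29.1% of all genes tested, and 7 (18.9%) were lower in replicate 2 in both groups, against 30.6%. Replicate number coincides with sequencing depth, and their parts in these values cannot be told apart.

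**Figure D2:**
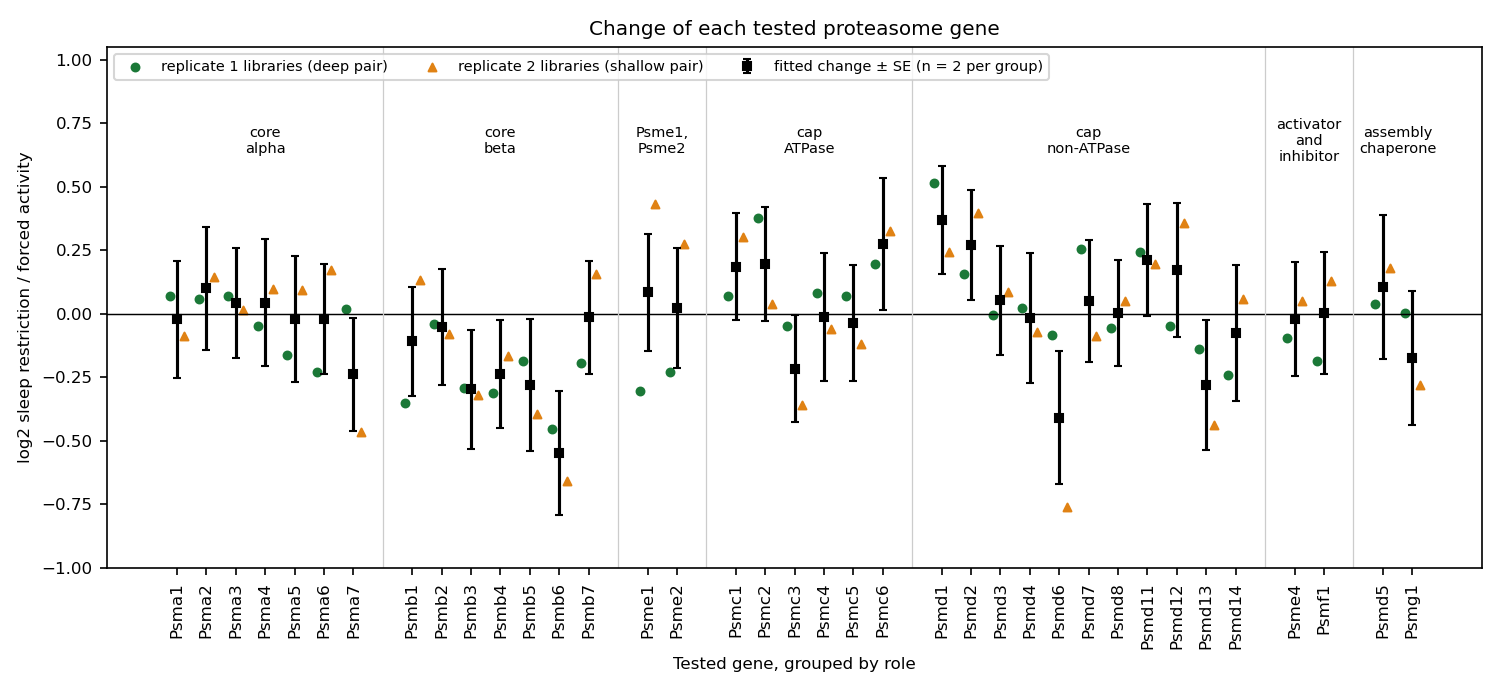
Log2 change of each tested proteasome gene, sleep restriction over forced activity, grouped by role. Black squares are fitted changes with their SE (2 libraries per group), green circles the difference within the replicate 1 libraries and orange triangles that within the replicate 2 libraries. The 7 core beta subunits have black squares below 0, from -0.55 to -0.01, and Psme1 and Psme2 have their pairs on opposite sides of 0.

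The regulatory cap was divided in direction. Of its 17 tested subunits 10 were positive and 7 negative, near the 52.5% positive over all genes tested, with a median of 0.05 (0.07 within the deep pair and 0.05 within the shallow pair). The summed cap measured 1378 and 1459 CPM under sleep restriction and 1273 and 1412 CPM under forced activity. The groups overlapped, as sleep restriction 1 lay below forced activity 2. Without sleep restriction 2 the median of the cap was -0.04.

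Psmd1, a large scaffold subunit at the base of the cap, had the most positive change of the members. It measured 128 and 120.1 CPM under sleep restriction and 88.2 and 101 CPM under forced activity. Both sleep restriction libraries lay above both forced activity libraries. The log2 change was 0.37 (SE 0.21), with 0.52 within the deep pair and 0.24 within the shallow pair, an unadjusted p of 0.110 and an adjusted p of 0.999 in edgeR's quasi-likelihood test.

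Psmd2, the other large scaffold subunit of the base, measured 123 and 120.1 CPM under sleep restriction and 109.8 and 90.2 CPM under forced activity. Its groups did not overlap either, its log2 change was 0.27 (SE 0.22), and it lay between 0.13 and 0.42 with each library left out in turn. Psmd1 spans 74.4 kb, in a bin with a median log2 change of 0.09, and Psmd2 spans 10.7 kb, in a bin with a median of -0.03. The part of span in these values was not tested.

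Psmd6, a subunit of the cap's lid, had a negative change. It measured 46.6 and 36.6 CPM under sleep restriction and 49.6 and 64.8 CPM under forced activity, a log2 change of -0.41 (SE 0.26). The groups did not overlap, but most of the difference lay in the shallow pair (-0.76) and little in the deep pair (-0.08). Psmd13, another lid subunit, had -0.28 (SE 0.25). Of the other lid subunits, Psmd11 had a log2 change of 0.21 (SE 0.22), Psmd12 0.17 (SE 0.26) and Psmd7 0.05 (SE 0.24). Psmd3 and Psmd8, also of the lid, had 0.05 and 0.00. Psmd4, a ubiquitin receptor, had -0.02 (SE 0.26), and Psmd14, which cuts ubiquitin off the substrate, had -0.08 (SE 0.27).

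The ATPases that unfold the substrate were divided, with 3 positive and 3 negative changes and a median of 0.09. Psmc6 measured 79.2 and 118 CPM under sleep restriction and 68.7 and 93.3 CPM under forced activity, a log2 change of 0.27 (SE 0.26) with overlapping groups. Psmc3 measured 109.7 and 102 CPM under sleep restriction and 114 and 132 CPM under forced activity, a log2 change of -0.22 (SE 0.21), with both sleep restriction libraries the lower. Psmc1 and Psmc2 had 0.19 (SE 0.21) and 0.20 (SE 0.22), with both sleep restriction libraries the higher, while Psmc4 and Psmc5 had -0.01 and -0.04 and overlapped.

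Over all tested members, 11 (29.7%) had groups that did not overlap, against 32.5% of all genes tested. Sleep restriction was lower in 6 (16.2%, against 15.3% of all genes tested), which were Psmb3, Psmb4, Psmb6, Psmc3, Psmd6 and Psmd13. It was higher in 5 (13.5%, against 17.2%), which were Psmc1, Psmc2, Psmd1, Psmd2 and Psmd11, all of them cap subunits. These shares are near those of all genes. Psmc3, Psmd6 and Psmd13 of the lower ones are cap subunits as well.

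Ratios within a library do not depend on the scaling between libraries. Summed counts of the cap over those of the constitutive core gave 1.20 and 1.13 under sleep restriction and 0.998 and 1.06 under forced activity. The means were 1.16 ± 0.0464 under sleep restriction and 1.03 ± 0.0412 under forced activity (SD, 2 libraries each). The groups did not overlap, and the log2 difference was 0.26 within the deep pair and 0.10 within the shallow pair. Of all genes tested, 32.5% had groups that did not overlap. The core sum includes the beta subunits, singled out above for lower values under sleep restriction, so this ratio is no separate observation. Core beta over core alpha gave 0.844 and 0.686 under sleep restriction and 0.998 and 0.750 under forced activity, which overlap. Psme1 and Psme2 over the core gave 0.182 and 0.216 under sleep restriction and 0.201 and 0.158 under forced activity, which also overlap. These ratios were formed with values of the members known and have no test.

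**Figure D3:**
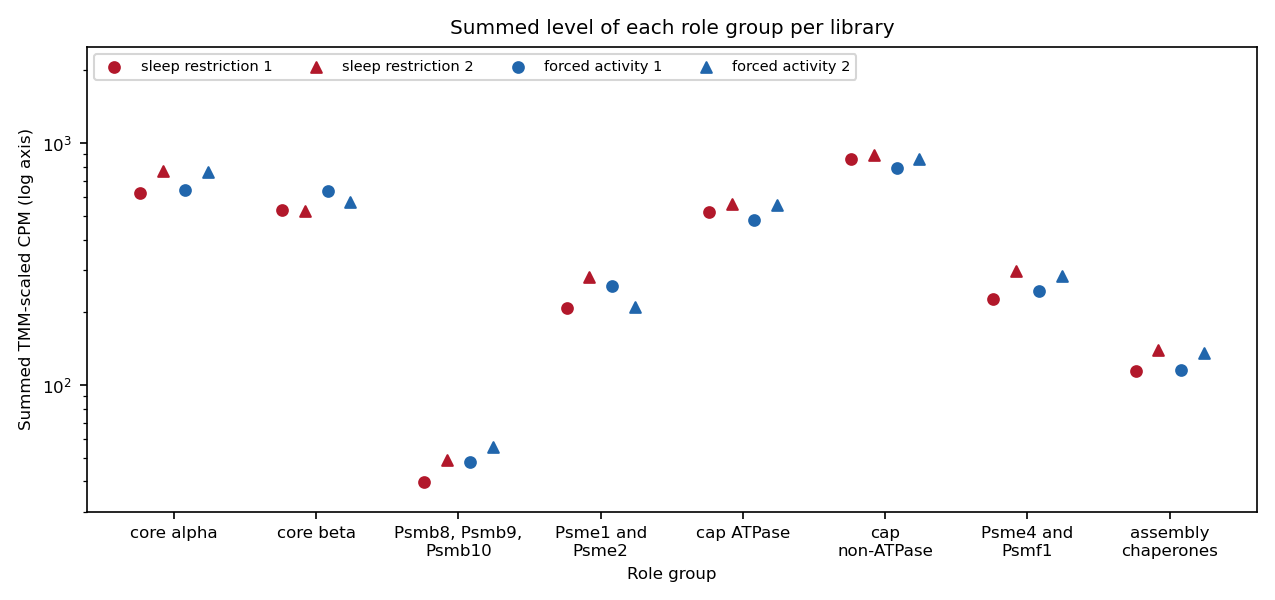
Summed TMM-scaled CPM of each role group in each library, on a log axis. Red points are sleep restriction, blue points forced activity, circles replicate 1 and triangles replicate 2. Core beta sums of 527 and 525 CPM under sleep restriction lie below the 637 and 573 CPM of forced activity, while core alpha sums lie together by replicate number.

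**Figure D4:**
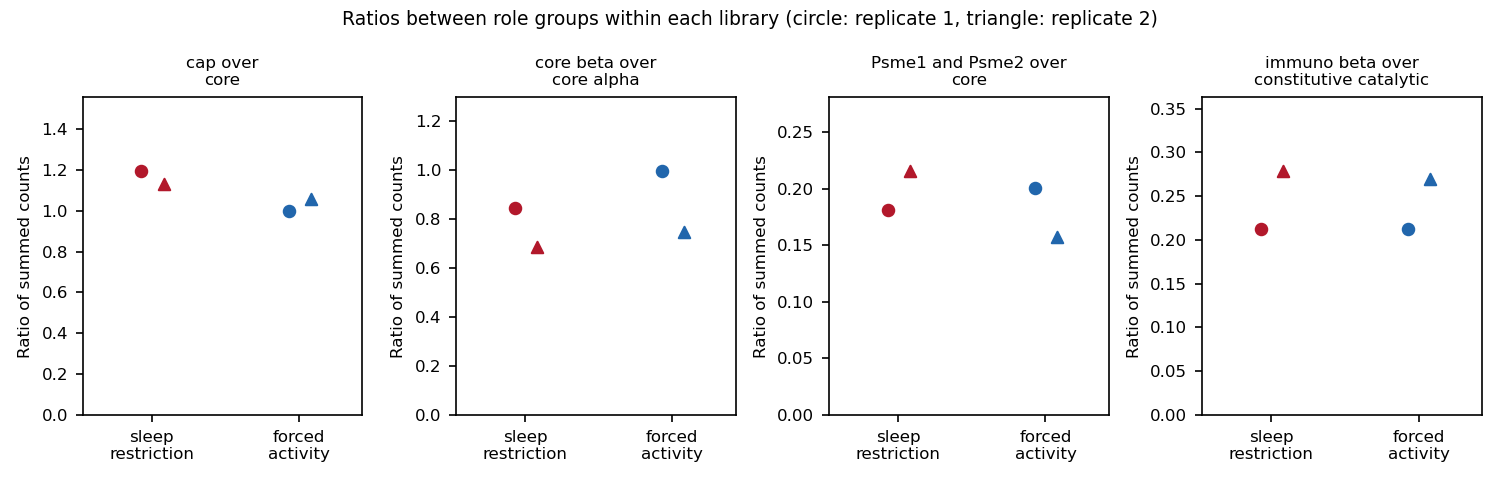
Ratios of summed counts between role groups within each library, with every vertical axis starting at 0. Red is sleep restriction, blue forced activity, circles replicate 1 and triangles replicate 2. The cap over core ratio of 1.20 and 1.13 under sleep restriction lies above 0.998 and 1.06 under forced activity, and the other plotted ratios overlap between the groups. The core includes the beta subunits that were singled out by their values, and no ratio was tested.

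The catalytic subunits of the immunoproteasome had few counts. Psmb8, which takes the place of Psmb5, had 4.9 and 9 counts under sleep restriction and 5.7 and 8.4 under forced activity. Psmb9, which takes the place of Psmb6, had 7 and 9 counts under sleep restriction and 7.6 and 8.4 under forced activity. In both genes the groups overlapped. Psmb10, which takes the place of Psmb7, had 7.7 and 6 counts under sleep restriction and 9.4 and 11.6 under forced activity, lower in both sleep restriction libraries. Summed, the 3 genes measured 39.9 and 48.8 CPM under sleep restriction and 48.1 and 55.3 CPM under forced activity. The sum was lower under sleep restriction at each replicate number, but the groups overlapped. Its log2 difference was -0.27 within the deep pair and -0.18 within the shallow pair. Within the shallow pair only Psmb10 was lower, at 12.2 CPM under sleep restriction and 22.6 CPM under forced activity. Psmb8 and Psmb9 were each higher there, at 18.3 CPM under sleep restriction and 16.4 CPM under forced activity.

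All 3 lay under the filter on low counts. Without a gene filter their log2 changes were -0.02 (SE 0.34) for Psmb8, -0.02 (SE 0.32) for Psmb9 and -0.49 (SE 0.32) for Psmb10, with an adjusted p of 0.995 each in edgeR's quasi-likelihood test. The changes of Psmb8 and Psmb9 were near 0, and none of the 3 genes passed the test. In the fit without a gene filter, 6991 of 12703 genes had a negative change. Psmb10 rests on at most 11.6 counts in a library. Psmb11, the beta subunit of the thymus, was at 0 in all 4 libraries.

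Summed counts of Psmb8, Psmb9 and Psmb10 over those of Psmb5, Psmb6 and Psmb7 came to 0.212 and 0.279 under sleep restriction and 0.212 and 0.270 under forced activity. The ratio was close between groups at each replicate number, with log2 differences of 0.00 and 0.05. The 3 single ratios did not share a direction. Psmb8 over Psmb5 was 0.147 and 0.391 under sleep restriction and 0.155 and 0.260 under forced activity, which overlap. Psmb9 over Psmb6 was higher, at 0.337 and 0.5 under sleep restriction and 0.270 and 0.272 under forced activity, with the low Psmb6 as its denominator. Psmb10 over Psmb7 was lower, at 0.202 and 0.133 under sleep restriction and 0.223 and 0.276 under forced activity. Transcript lengths were not used, so these ratios compare libraries and not the amounts of the subunits.

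Psme1 and Psme2 code for a ring that opens the core without ATP. Psme1 measured 146 and 206 CPM under sleep restriction and 181 and 151 CPM under forced activity, a log2 change of 0.08 (SE 0.23). Psme2 measured 63.3 and 73.3 CPM under sleep restriction and 75.0 and 59.8 CPM under forced activity, a log2 change of 0.02 (SE 0.24). Both were lower under sleep restriction in the deep pair (-0.30 for Psme1 and -0.23 for Psme2) and higher in the shallow pair (0.43 and 0.28). They are neighbours on rn6 chromosome 15, Psme1 from 34256071 to 34258947 and Psme2 from 34265557 to 34269851, and RefSeq names 2 pseudogenes for Psme1 and 3 for Psme2. Psmb9 and Psmb8 likewise lie close together on rn6 chromosome 20, Psmb9 from 3973420 to 3978845 and Psmb8 from 3990613 to 3993769.

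Immune cells also express these subunits. The 12 macrophage markers summed to 1132 and 794 CPM under sleep restriction and 719 and 951 CPM under forced activity. The 12 lymphocyte markers summed to 97.7 and 124 CPM under sleep restriction and 225 and 237 CPM under forced activity. Most of that sum was Igkc and Ighm, while Cd3e, a defining marker of T cells, had at most 0.1 counts. The 11 endothelial markers summed to 582 and 309 CPM under sleep restriction and 238 and 587 CPM under forced activity. The 6 red cell markers summed to 1234 and 761 CPM under sleep restriction and 926 and 1927 CPM under forced activity. The part of other cell types in the proteasome values was not tested.

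Partners of the immunoproteasome in antigen presentation did not pass the test either. Of 14 listed rows 8 were tested, 7 of them below 0 (median -0.21), where 47.5% of all genes tested were below 0. In edgeR's quasi-likelihood test 0 had an adjusted p under 0.05 and 0 an unadjusted p under 0.05, against 0.0201% and 4.21% of all genes. Tap1, a subunit of the peptide transporter, was under the filter with 6.8 and 2 counts under sleep restriction and 10.3 and 8.9 under forced activity, and was chosen after its values were seen. Irf1, a transcription factor induced by interferon, had a log2 change of -0.22 (SE 0.33). B2m, the light chain of class I molecules, had -0.03 (SE 0.18).

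Promoter sequences from RefSeq (build GRCr8), running from 250 bases before to 50 bases after the transcript start, matched 43 of the 48 members by symbol, all but Psma7, Psmb11, Psmd6, Psmd12 and Psmd14. Both strands were searched for the letters of known factor sites, and matches of different motifs could overlap. The interferon-stimulated response element, searched as GAAA, any 2 bases and GAAA, occurred in 7 member promoters (16.3%) and in 3.92% of 33365 distinct promoters. It occurred in Psmb8, Psmb10 and Psme2 of the immunoproteasome, and also in Psma4, Psmb3, Psmd7 and Psmg4. The antioxidant response element, the site of Nfe2l1 and Nfe2l2, searched as TGACNNNGC, occurred in 8 member promoters (18.6%) and in 12.1% of all. These were Psma3, Psmb2, Psmb5, Psmb6, Psmd1, Psmd3, Psmd9 and Psme4.

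The CCAAT box, searched as CCAAT, occurred in 48.8% of member promoters against 37.5% of all. The GC box, searched as GGGCGG, occurred in 72.1% against 33.1%, and the TATA box, searched as TATAAA, in 9.3% against 14.2%. Median GC content was 56% in members and 51.7% in all promoters. A match describes letters and not a bound site.

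Psmb6 and Psmd1, the members with the most negative and the most positive log2 change, are shown because both promoters hold the letters of the antioxidant response element. The promoter of Psmd1 holds a further match from base 23 after the start, beyond the stretch shown. The stretches run from 180 bases before to 10 bases after the start, at GRCr8 chr10:55737708-55737897 (plus strand) for Psmb6 and chr9:94157791-94157980 (plus strand) for Psmd1, 5′ to 3′, with the element in capitals.
Psmb6: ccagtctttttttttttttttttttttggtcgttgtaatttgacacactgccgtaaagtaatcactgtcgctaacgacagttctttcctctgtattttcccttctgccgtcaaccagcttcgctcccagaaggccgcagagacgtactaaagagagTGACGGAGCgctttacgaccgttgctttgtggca
Psmd1: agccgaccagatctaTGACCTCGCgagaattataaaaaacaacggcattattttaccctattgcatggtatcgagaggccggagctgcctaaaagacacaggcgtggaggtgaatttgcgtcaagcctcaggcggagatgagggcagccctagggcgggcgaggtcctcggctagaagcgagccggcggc

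Psmb8, Psmb10 and Psme2 are shown for the interferon-stimulated response element near the start of immunoproteasome genes. The stretches cover the same distance from the start, at GRCr8 chr20:4657022-4657211 for Psmb8, chr19:50743283-50743472 for Psmb10 and chr15:33052742-33052931 for Psme2, all on the minus strand, 5′ to 3′, with the element in capitals. In Psmb8 the match is on the opposite strand and so reads as its reverse complement. This Psmb8 match begins 4 bases before the start and runs past it, while those of Psmb10 and Psme2 lie before the start.
Psmb8: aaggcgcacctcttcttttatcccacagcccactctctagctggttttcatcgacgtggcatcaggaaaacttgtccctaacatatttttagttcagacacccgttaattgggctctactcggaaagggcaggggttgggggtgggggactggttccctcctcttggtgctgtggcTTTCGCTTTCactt
Psmb10: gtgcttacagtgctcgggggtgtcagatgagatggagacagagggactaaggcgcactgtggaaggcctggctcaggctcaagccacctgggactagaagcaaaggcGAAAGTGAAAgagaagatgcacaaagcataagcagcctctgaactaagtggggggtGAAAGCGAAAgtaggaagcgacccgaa
Psme2: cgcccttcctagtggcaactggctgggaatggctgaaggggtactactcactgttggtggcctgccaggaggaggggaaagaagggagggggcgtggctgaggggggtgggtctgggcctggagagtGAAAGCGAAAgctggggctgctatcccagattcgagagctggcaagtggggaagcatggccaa

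The activator and the inhibitor outside the immunoproteasome were level. Psme4, a large activator known for the degradation of acetylated histones, measured 174 and 232 CPM under sleep restriction and 186 and 224 CPM under forced activity. Its log2 change was -0.02 (SE 0.22), and in each group the replicate 2 library was the higher. Psmf1, an inhibitor of the core in vitro, measured 52.5 and 65.1 CPM under sleep restriction and 60.4 and 59.2 CPM under forced activity, a log2 change of 0.00 (SE 0.24).

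Assembly chaperones bring the rings together and leave the finished particle. The 7 listed summed to 114 and 140.4 CPM under sleep restriction and 115 and 136 CPM under forced activity, so that the groups overlapped and replicate 2 was the higher in each. Psmg1 and Psmd5 passed the filter on low counts. Psmg1, which with Psmg2 starts the alpha ring, measured 33.6 and 36.6 CPM under sleep restriction and 33.5 and 45.4 CPM under forced activity, a log2 change of -0.17 (SE 0.26). Psmd5, a chaperone of the cap's base, had 0.11 (SE 0.28).

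The 5 other chaperones were under the filter. Psmg2 had 4.2 and 5 counts under sleep restriction and 4.7 and 5 under forced activity. Psmg3, which with Psmg4 also acts on the core, had 4.8 and 6 counts under sleep restriction and 3.7 and 5 under forced activity. Psmg4 had 6.6 and 4 counts under sleep restriction and 7.5 and 4 under forced activity. The base chaperone Psmd9 had 7.3 and 9 counts under sleep restriction and 6.6 and 9.2 under forced activity, and Psmd10, another of them, had 0.8 and 3 counts under sleep restriction and 1.4 and 1.4 under forced activity. At these counts small differences could not be seen. Psmc3ip had 1 and 1 counts under sleep restriction and 0.9 and 1.2 under forced activity.

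Genes of the ubiquitin system around the proteasome did not pass the test. Of 45 listed genes 37 were tested, 24 positive and 13 negative, where 52.5% of all genes tested were positive. Their median log2 change was 0.02, against 0.00 over all genes. In edgeR's quasi-likelihood test 0 had an adjusted p under 0.05 and 0 an unadjusted p under 0.05, against 0.0201% and 4.21% of all genes. Summed, the listed genes measured 3485 and 3958 CPM under sleep restriction and 3444 and 3484 CPM under forced activity. Sleep restriction 2 was the highest, while sleep restriction 1 was level with forced activity 2. As a share of all counts, sleep restriction 1 (0.332%) lay below forced activity 2 (0.344%), so the groups overlapped on that scale. Groups did not overlap in 3 genes with sleep restriction higher and 4 with it lower, against 17.2% and 15.3% of all genes. Nfe2l1, the factor that induces proteasome genes when proteasome activity is short, measured 53.9 and 40.7 CPM under sleep restriction and 46.4 and 29.4 CPM under forced activity, a log2 change of 0.29 (SE 0.29) with overlapping groups. Nfe2l2, the regulator of antioxidant genes, measured 84.9 and 167 CPM under sleep restriction and 76.1 and 87.6 CPM under forced activity, a log2 change of 0.60 (SE 0.30). Its groups overlapped, and the difference lay mostly in the shallow pair (0.90, against 0.15 in the deep pair). Without sleep restriction 2 the log2 change of Nfe2l2 was 0.05, and without sleep restriction 1 it was 0.98, with an unadjusted p of 0.00629 and an adjusted p of 0.653 in edgeR. With all libraries its unadjusted p was 0.0726 and its adjusted p 0.999 in edgeR's quasi-likelihood test.

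Shfm1, a small lid subunit without a Psm symbol, measured 56.4 and 59.0 CPM under sleep restriction and 72.9 and 88.4 CPM under forced activity, a log2 change of -0.44 (SE 0.23). Ubr2, a ubiquitin ligase of the N-degron pathway, measured 99.5 and 89.5 CPM under sleep restriction and 73.1 and 65.2 CPM under forced activity, a log2 change of 0.43 (SE 0.22). Rad23b, which ferries tagged proteins to the cap, measured 244 and 283 CPM under sleep restriction and 213 and 195 CPM under forced activity, a log2 change of 0.37 (SE 0.20). These 3 genes were named for their small p. Their groups did not overlap, with sleep restriction lower for Shfm1 and higher for Ubr2 and Rad23b, and none passed the test. On the cap itself, the ubiquitin receptor Adrm1 had -0.02 (SE 0.24), and the deubiquitinases Usp14 and Uchl5 had 0.29 (SE 0.31) and 0.23 (SE 0.36). Pomp, the maturation factor of the core, had 1.7 and 2 counts under sleep restriction and 1.3 and 0 under forced activity and was under the filter.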

How the data were processed

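Liver RNA of 4 rat libraries was measured by RNA-seq. The submitters' processing notes name CASAVA, STAR 2.4.1d and build rn6, without saying what each did. For the program that counted the reads, none is named in the sources used here. Estimated counts per gene were deposited, in multiples of 0.1. These were read, from their spread and from the table's own name, which also marks the sense strand, as means over 10 draws to a common depth. The fraction of reads kept, estimated from low values, was 0.06 for sleep restriction 1, 1 for sleep restriction 2, 0.04 for forced activity 1 and 0.59 for forced activity 2. Fractions from 0.02 to 0.08 for sleep restriction 1 and from 0.02 to 0.06 for forced activity 1 fitted nearly as well. As 0.02 was the smallest fraction tried, these ranges have no lower bound.

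Rounded counts went into edgeR 4.0.16 under R 4.3.3 (TMM factors, filterByExpr with a minimum count of 10, robust quasi-likelihood test, prior count 2, Benjamini-Hochberg adjustment over all genes kept, threshold 0.05). DESeq2 1.42.0 and limma-voom (limma 3.58.1) were alternatives, with other scalings, filters and libraries left out. The procedure was tested on simulated data. The counts simulated for the fit lacked the averaging over draws and the unequal depth of these libraries, and no result here rests on them. Printed per library were the immunoproteasome genes, their constitutive counterparts and, per role group, the 2 tested members with the smallest p and the 1 with the highest mean CPM. From the ubiquitin list the 4 genes with the smallest p and 6 chosen by name were taken. Members and lists were chosen with earlier results of these data known.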

Additional observations from a re-analysis of the deposited data

How the results depend on the processing

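Across all genes, 1 gene was called in the edgeR test. DESeq2 called 2, limma-voom 0, no gene filter 5, the fit without robust estimation 0, the replicate block 5 and effective counts 2, and leaving out each library gave 0 to 0. No proteasome gene was called under any of these. The median log2 change of the members was -0.01, and -0.15 to 0.11 with 1 library left out, with -0.15 without sleep restriction 2 and 0.11 without sleep restriction 1.

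The labels tie no replicate numbers to shared animals or batches, and deviations of same-numbered libraries correlated at 0.206 over genes with only 2 pairs. With the replicate block the smallest adjusted p of a member was 0.80 in edgeR, for Psmb6. With that block Nfe2l2 and Ubr2 had unadjusted p of 0.0184 and 0.0479, and adjusted p of 0.636 and 0.806, in edgeR.

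Changes near 0 turned sign. Psme2 was -0.0036 without a gene filter, -0.0072 with the filter at 5 CPM and -0.062 on effective counts. Psmf1 was -0.0057 with DESeq2 size factors, -0.0082 without scaling factors, -0.0064 in DESeq2, -0.0038 in limma-voom, -0.021 without a gene filter, -0.025 with the filter at 5 CPM and -0.093 on effective counts. The cause was not tested.

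With each library left out, 14 of 27 named tested genes crossed 0. The log2 ranges were -0.13 to 0.29 for Psma2, -0.087 to 0.18 for Psma3, -0.24 to 0.018 for Psmb1, -0.14 to 0.091 for Psmb7, -0.035 to 0.52 for Psmc6, -0.18 to 0.29 for Psme1 and -0.12 to 0.17 for Psme2. They were -0.25 to 0.17 for Psme4, -0.15 to 0.13 for Psmf1, -0.34 to 0.021 for Psmg1, -0.10 to 0.068 for Adrm1, -0.00040 to 0.61 for Nfe2l1, -0.20 to 0.56 for Uchl5 and -0.20 to 0.64 for Usp14. Where 1 library was left, it was assumed to vary like the other group. Depth limits what can be said of the 11 members under the filter.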
